A study of Mus musculus with 7 samples.

Results

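Epithelial cell junction genes and epithelial transcription factors were followed in the thymus of mice that lack RelB. The 8 genes were chosen by symbol: Epcam, Cdh1, Cldn3, Cldn4 and Cldn7 for cell adhesion, and Elf3, Ehf and Trp63 for transcription. All probes of the array whose platform annotation carried one of these symbols were taken, which gave 9 probes of 7 genes among 25695 probes. No probe carried the symbol or gene identifier of Epcam in that annotation, so Epcam was not analysed here. A detection filter kept 5 of the 9 probes, for Cdh1, Cldn4, Cldn7, Elf3 and Trp63, and these 5 genes were tested among 9569 genes.

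RNA of whole thymus from 7 mice, each 8 weeks old, was hybridised to Illumina bead arrays, with a separate array for every animal. By genotype label, 3 mice were RelB-/- and 4 were RelB+/-. The RelB+/- controls therefore carry 1 disrupted copy of Relb themselves, although the sample titles call them wild type. RelB is an NF-kB subunit. The labels do not give the mutation, the strain or the sex of the mice. Median raw intensity ranged from 103.5 to 142.3 between arrays, and 45.9% to 49.4% of probes were detected. Relb itself, the check of the labels, was above background in 4 of 4 RelB+/- mice but in 0 of 3 RelB-/- mice. Levels below are normalized log2 intensities, on which probes detected above background began at 4.83 to 4.98 depending on the array. A difference is RelB-/- minus RelB+/-, with the standard error (SE) and 95% interval of the limma fit. Adjusted p-values were taken over all genes tested, and a gene was called at an adjusted p under 0.05. Because probes differ in brightness, the levels of different genes are not compared.

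Thymic epithelium forms a sponge-like network among thymocytes, with a cortex that selects immature thymocytes and a medulla that shows them tissue-restricted antigens. RelB is required for the formation of a normal medulla with mature medullary epithelial cells. Epithelial cells of many organs share a common program, which is read here through these genes. They are not neutral between the thymic compartments, because Cldn3, Cldn4 and Trp63 are also in the list of medullary genes used below. Cdh1 encodes E-cadherin, the adhesion molecule of adherens junctions. Epcam encodes a surface adhesion molecule used to sort thymic epithelium. Claudins are the transmembrane strands of tight junctions, and Cldn3 and Cldn4 mark part of the medullary epithelium and its precursors. Elf3 and Ehf encode ETS family transcription factors restricted to epithelia. Trp63 encodes p63, the transcription factor that maintains the growth potential of stratified and thymic epithelium.

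Promoter sequences were read for the genes that RefSeq's table covered (GRCm38.p6, 250 bases before to 50 after a transcript start), which matched 5 of the 8 genes in 6 windows: Epcam, Cldn3, Cldn4, Elf3 and both starts of Cldn7. Cdh1, Ehf and Trp63 had no entry. These windows are shown because several of these genes are known targets of the Zeb and Snail repressors, which bind the E-box CAGGTG, and because RelB binds NF-kB sites. Capitals mark CAGGTG on either strand (CACCTG on the strand shown). The windows are those of Cldn3 (chr5:134985964-134986263, plus strand), Cldn4 (chr5:134946885-134947184, minus strand), the second start of Cldn7 (chr11:69965171-69965470, plus strand) and Elf3 (chr1:135258423-135258722, minus strand), each written 5′ to 3′ on the strand of the gene.
Cldn3: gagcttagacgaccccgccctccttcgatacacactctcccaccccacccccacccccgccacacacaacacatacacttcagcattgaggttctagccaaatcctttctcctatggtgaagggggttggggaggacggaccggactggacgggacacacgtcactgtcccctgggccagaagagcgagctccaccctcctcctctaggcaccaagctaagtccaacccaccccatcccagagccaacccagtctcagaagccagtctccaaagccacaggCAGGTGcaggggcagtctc
Cldn4: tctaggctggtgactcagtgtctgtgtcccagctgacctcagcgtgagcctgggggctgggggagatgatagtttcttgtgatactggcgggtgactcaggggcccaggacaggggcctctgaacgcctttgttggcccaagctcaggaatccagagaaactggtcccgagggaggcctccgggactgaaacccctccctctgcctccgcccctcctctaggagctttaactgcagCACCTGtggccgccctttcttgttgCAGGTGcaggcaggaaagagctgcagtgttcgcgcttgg
Cldn7: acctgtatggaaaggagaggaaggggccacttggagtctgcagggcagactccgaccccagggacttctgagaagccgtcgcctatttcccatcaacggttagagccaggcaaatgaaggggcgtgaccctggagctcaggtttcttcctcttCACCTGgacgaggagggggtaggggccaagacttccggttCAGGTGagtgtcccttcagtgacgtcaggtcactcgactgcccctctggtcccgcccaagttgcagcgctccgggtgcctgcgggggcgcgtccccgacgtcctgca
Elf3: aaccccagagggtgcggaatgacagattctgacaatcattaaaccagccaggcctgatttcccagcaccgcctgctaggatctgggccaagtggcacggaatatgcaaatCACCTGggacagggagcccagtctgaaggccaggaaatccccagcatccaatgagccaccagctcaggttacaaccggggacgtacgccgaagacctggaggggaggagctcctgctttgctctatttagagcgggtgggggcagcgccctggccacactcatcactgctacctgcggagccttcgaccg

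The E-box was present in 5 of the 6 windows, with 2 matches in Epcam, Cldn4 and the second window of Cldn7, 1 match in Cldn3 and Elf3, and 0 in the first window of Cldn7 (chr11:69964529-69964828). Of all 32851 promoter windows of that length, 20.2% held it. In Cldn4 the matches flanked the transcript start, from -14 to -9 and from 12 to 17. In Cldn3 the match lay from 32 to 37 and in Elf3 from -140 to -135. The loose NF-kB pattern GGGNNNNNCC, searched on both strands, was found in both windows of Cldn7 and in Elf3, which is 3 of 6 windows against 50.8% of all windows. Some of its matches overlapped each other on opposite strands, and none overlapped an E-box. The ETS pattern GGAAGT was found in the 2 windows of Cldn7 alone, against 23.8% of all windows. A match describes letters in a window and says nothing about occupancy in thymus. On the RefSeq map Cldn3 and Cldn4 are neighbouring protein-coding genes, as are Ehf and the related ETS gene Elf5, and Cdh1 and the cadherin gene Cdh3.

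Of the 5 genes tested, 0 were called lower and 0 higher in RelB-/- thymus. Among all 9569 genes 0.669% were called lower and 0.105% higher, so a count of 0 among 5 genes does not stand apart from this background. At an unadjusted p under 0.05, 1 of the 5 was lower (Trp63) and 0 were higher, against 6.3% lower and 6.88% higher over all genes. The median difference of the 5 genes was -0.12, beside a median of 0.03 over all genes. Their differences ran from -0.80 for Trp63 to 0.36 for Cldn7, and 4 of the 5 were negative, against 46.2% of all genes. In none of the 5 genes were the 2 genotypes free of overlap, against 6.25% of genes not overlapping and lower and 7.38% not overlapping and higher. These counts cover the 5 genes kept by the filter, and nothing is said of Epcam, Cldn3 and Ehf from them.

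**Figure D1:**
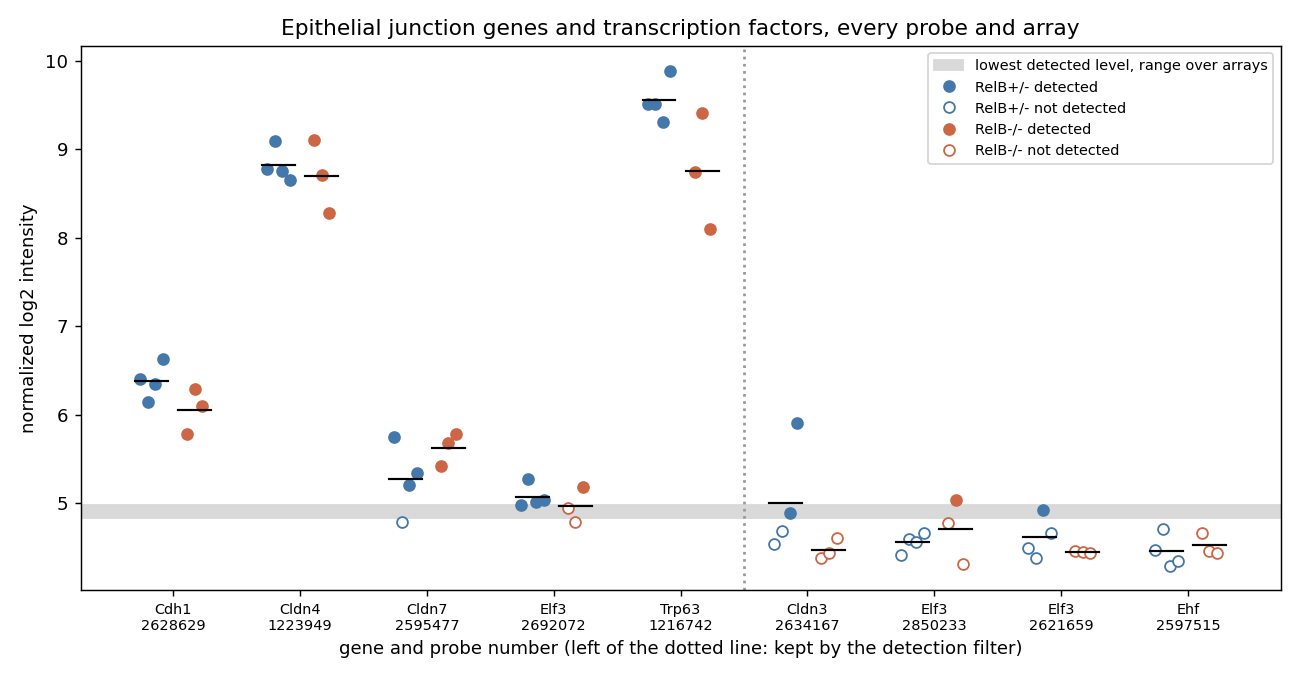
Normalized log2 intensity of every probe of the junction genes and epithelial factors on each array, with RelB+/- in blue on the left and RelB-/- in orange on the right of each gene. Filled points were detected (detection p under 0.05), bars are group means, and the grey band spans the lowest detected level of the arrays from 4.83 to 4.98. The genotypes overlap in each of the 5 kept probes, and the 4 probes right of the dotted line lie mostly under the band.

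E-cadherin signal was present in every RelB-/- thymus, and its difference from RelB+/- did not pass the test. Cdh1 (probe ILMN_2628629) read 6.40, 6.15, 6.35 and 6.63 in RelB+/- mice 1 to 4, compared with 5.78, 6.29 and 6.10 in the RelB-/- mice 1 to 3, and was detected on all 7 arrays. The lowest array was RelB-/- 1 and the highest RelB+/- 4, while RelB-/- 2 lay above RelB+/- 2, so the groups overlapped. The means were 6.38 ± 0.20 (SD, n = 4) and 6.06 ± 0.26 (SD, n = 3), a difference of -0.32 (SE 0.18, 95% interval -0.73 to 0.08, limma adjusted p = 0.465). A loss of Cdh1 signal of 1 log2 unit or more lay outside this interval, with the reserve that background compresses the differences of dim probes. This holds for the main normalization only: with median scaling the difference was -0.47 with a larger SE of 0.29. Nothing about protein or junctions was measured. In bulk tissue, fewer cells of a type and less RNA per cell cannot be told apart, here and in all results that follow.

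Cldn4, a claudin of medullary epithelium with the E-boxes at its transcript start shown above, was bright on every array. Its probe (ILMN_1223949) read 8.78, 9.10, 8.76 and 8.65 in RelB+/- mice 1 to 4, compared with 9.11, 8.71 and 8.28 in the RelB-/- mice 1 to 3. The highest and the lowest of the 7 values were both RelB-/- arrays, and the RelB+/- values lay between them. The means were 8.82 ± 0.19 (SD, n = 4) and 8.70 ± 0.41 (SD, n = 3), which gave a difference of -0.12 (SE 0.21, 95% interval -0.61 to 0.36, limma adjusted p = 0.828). Its sign depended on 1 array: without RelB-/- 3 the difference was 0.09 (adjusted p = 0.863). RelB-/- 3 and RelB+/- 2 also held transcripts of heart muscle, and without both of these arrays the difference was 0.18 (adjusted p = 0.681).

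Cldn7, the claudin that binds EpCAM in epithelial membranes, was the 1 gene of the 5 with a positive difference. Its probe (ILMN_2595477) read 5.74, 4.78, 5.21 and 5.34 in RelB+/- mice 1 to 4, compared with 5.42, 5.68 and 5.78 in the RelB-/- mice 1 to 3. The signal of RelB+/- 2 was under the detection threshold and the other 6 arrays were above it. All RelB-/- values lay above RelB+/- 2, 3 and 4, and RelB+/- 1 lay among the RelB-/- values. The means were 5.27 ± 0.40 (SD, n = 4) and 5.63 ± 0.19 (SD, n = 3), a difference of 0.36 (SE 0.23, 95% interval -0.16 to 0.87, limma adjusted p = 0.514). Without RelB+/- 2, the lowest array, the difference was 0.20 (adjusted p = 0.677), and without both heart arrays it was 0.12. The values are close to background, where log2 differences are compressed.

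Cldn3, the neighbour of Cldn4, was left out by the filter. Its probe (ILMN_2634167) passed the detection threshold in RelB+/- 3 and RelB+/- 4 and in none of the RelB-/- mice. The levels were 4.53, 4.69, 4.88 and 5.91 in RelB+/- mice 1 to 4, compared with 4.38, 4.44 and 4.60 in the RelB-/- mice 1 to 3. RelB+/- 4 stood more than 1 log2 unit above every other array, and RelB+/- 1 lay below RelB-/- 3, so the groups overlapped. RelB+/- 1 and RelB+/- 2 were under the threshold as well, so no direction is given for Cldn3. The bound formed from the group means, 1.05-fold, allows almost no difference and includes the high value of RelB+/- 4. A limma fit of every probe without a filter, chosen after the data were seen, did not call the gene (adjusted p = 0.673). RelB+/- 4 was also the array with the highest levels of mesothelial transcripts, from a list added after the data were seen. Upk3b, a uroplakin of mesothelium, read 11.8 on RelB+/- 4 against 6.49 to 10.03 on the other 6 arrays by its probe ILMN_2941714, and the claudin gene Cldn15 read 9.45 there against 6.31 to 8.64. Of 10 mesothelial genes with a probe on the array, 7 had a probe kept by the filter, and Efemp1 and Gpm6a were detected on no array. The part of these transcripts in the Cldn3 value was not tested.

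Trp63 had the largest difference of the 5 genes, a lower mean in RelB-/- thymus that did not pass the test. Its probe (ILMN_1216742) read 9.51, 9.52, 9.30 and 9.89 in RelB+/- mice 1 to 4, compared with 8.75, 9.41 and 8.10 in the RelB-/- mice 1 to 3. RelB-/- 1 and RelB-/- 3 lay below every RelB+/- array, whereas RelB-/- 2 lay within the RelB+/- range. The means were 9.55 ± 0.24 (SD, n = 4) and 8.75 ± 0.65 (SD, n = 3). The difference was -0.80 (SE 0.29, 95% interval -1.47 to -0.13), with an unadjusted p of 0.024 and an adjusted p of 0.317 by limma. An exact permutation of the genotype labels over the 7 arrays gave a two-sided p of 0.0571, where the smallest possible value is 0.0286. The difference was -1.13 without RelB-/- 2 (adjusted p = 0.154) and -0.47 without RelB-/- 3 (adjusted p = 0.404). It was -0.49 without both arrays that held heart muscle transcripts (adjusted p = 0.444).

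Keratins of p63-positive basal cells are set beside these values, with Krt5 chosen after its values were seen. Krt14, a keratin of basal and medullary epithelium, read 10.3, 10.2, 10.3 and 10.6 in the RelB+/- mice, compared with 8.03, 8.97 and 9.08 in the RelB-/- mice, and was the 1 keratin called lower (difference -1.68, SE 0.26, limma adjusted p = 0.028). Significance of Krt14 was lost without any single RelB+/- array or without RelB-/- 2 (adjusted p 0.055 to 0.091), without both heart arrays (0.068), without a detection filter (0.0503) and with the replicate block (0.131). Krt5, its basal partner, read 7.27, 7.22, 8.18 and 6.38 in the RelB+/- mice, compared with 5.88, 6.40 and 5.50 in the RelB-/- mice, a difference of -1.33 (SE 0.39, adjusted p = 0.249). Among the RelB-/- mice, RelB-/- 2 had the highest Trp63 and Krt5 levels, whereas RelB-/- 3 had the highest Krt14 level.

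Both ETS factors were at the limit of detection. Elf3 was represented by 3 probes, of which 1 (ILMN_2692072) was kept. That probe read 4.97, 5.27, 5.01 and 5.03 in RelB+/- mice 1 to 4, all detected, and 4.94, 4.79 and 5.18 in the RelB-/- mice 1 to 3, of which RelB-/- 3 alone was detected. RelB-/- 3 lay above 3 of the 4 RelB+/- arrays although the other RelB-/- arrays lay below all of them. The difference was -0.10 (SE 0.15, 95% interval -0.45 to 0.24, limma adjusted p = 0.790). The other probes, ILMN_2850233 and ILMN_2621659, were each detected on 1 of 7 arrays, RelB-/- 2 and RelB+/- 3 respectively. No direction can be given for Elf3 at this signal. The probe of Ehf (ILMN_2597515) was detected on 0 of 7 arrays, with levels from 4.29 to 4.71, so no fold was formed for it.

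The 5 genes were also compared with one another. For each of the 10 pairs the difference between 2 genes within an array was compared between genotypes by a two-sided exact permutation test. The smallest p-values were 0.0571, for Cdh1 against Cldn7 and for Cldn7 against Trp63, and 0.286 after Benjamini-Hochberg adjustment over the 10 pairs. Relative to Cldn7, Trp63 was lower in RelB-/- thymus by 1.16 on the log2 scale and Cdh1 by 0.68. With 3 and 4 arrays the adjusted test could pass only if several pairs reached 0.0286, so these data cannot rank the genes by their response.

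**Figure D2:**
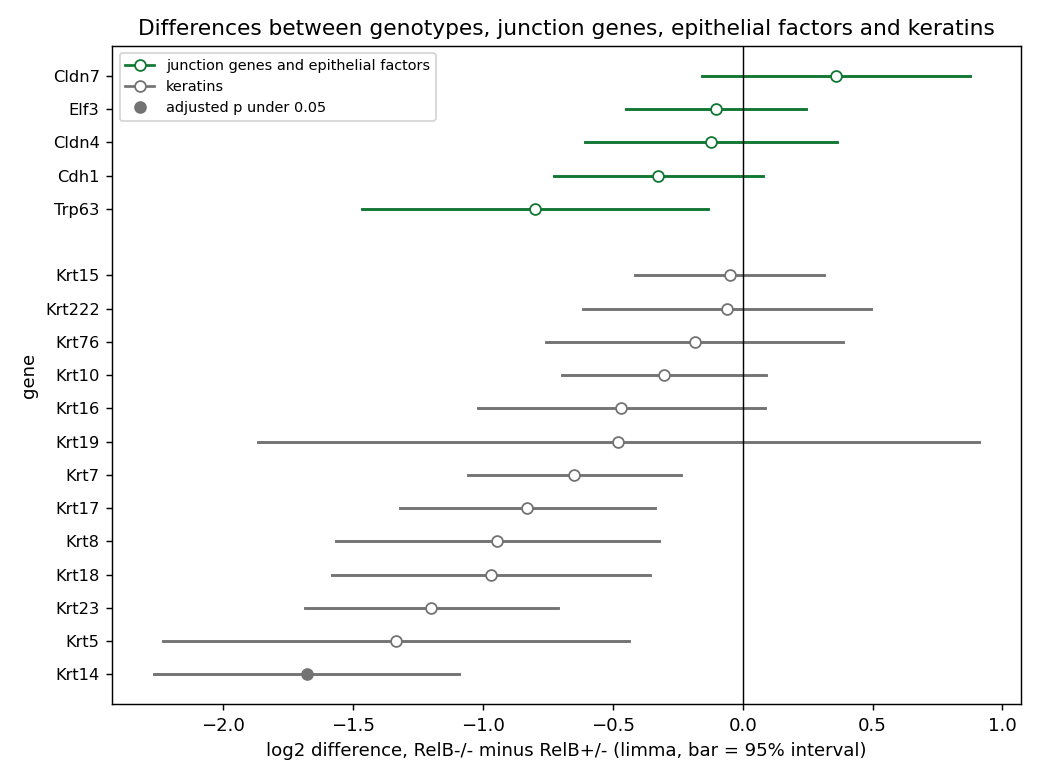
Log2 differences between genotypes (RelB-/- minus RelB+/-, horizontal axis) with 95% intervals from the limma fit, for the 5 tested junction genes and epithelial factors in green and the 13 tested keratins in grey. The intervals of Cdh1, Cldn4, Cldn7 and Elf3 include 0, that of Trp63 runs from -1.47 to -0.13, and Krt14 alone is filled (adjusted p under 0.05).

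Other claudins gave a mixed picture. Of 19 claudin genes with a probe, 7 passed the filter, 0 were called, 3 had negative and 4 positive differences, and the median was 0.08 against 0.03 over all genes (-0.01 to 0.38 with single arrays left out). Cldn1, a claudin of stratified epithelium, read 6.65, 6.56, 5.85 and 6.42 in the RelB+/- mice, compared with 5.45, 5.72 and 5.15 in the RelB-/- mice, so that its groups did not overlap. The test was not passed (difference -0.93, SE 0.23, limma adjusted p = 0.154). Of 20 other tight junction genes 5 were tested and 0 called, with a median of -0.08 (-0.19 to 0.12 with single arrays left out). Tjp3, a scaffold protein of tight junctions, had a difference of -0.57 (SE 0.20, adjusted p = 0.301), and Patj, a polarity scaffold, one of 0.34 (SE 0.23, adjusted p = 0.550).

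Among genes of adherens junctions and desmosomes 10 of 22 were tested, 1 was called lower and 0 higher, with a median of -0.16 (-0.29 to -0.01 with single arrays left out). The called gene, Cdhr1, encodes a cadherin-related protein best known from photoreceptors rather than from these junctions. It read 6.98, 6.87, 5.65 and 6.22 in the RelB+/- mice, compared with 4.64, 4.58 and 4.32 in the RelB-/- mice, with every RelB-/- value under the detection threshold. With the main background correction, the mean level without RelB was at least 2.83-fold lower (limma adjusted p = 0.034). That bound does not hold for other processing. The Cdhr1 difference was -0.72 without background correction and -0.43 with the authors' processed values. Leaving out any 1 array other than RelB+/- 3 ended the call (adjusted p 0.061 to 0.112), as did leaving out both heart arrays (0.172), the replicate block (0.074), no background correction (0.112), no detection filter (0.066) and the authors' processed values (0.180). The catenins of the E-cadherin complex gave small differences, 0.22 for Ctnnb1 (SE 0.18, adjusted p = 0.611) and -0.06 for Ctnna1 (SE 0.26, adjusted p = 0.945), chosen after their values were seen as partners of Cdh1.

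Most epithelial adhesion and surface genes had negative differences, and none was called. Of 25 genes 13 were tested, 0 were called and 12 had negative differences, against 46.2% of all genes, with a median of -0.48. That median is the value of St14, which was under the detection threshold in every RelB-/- mouse. Its bound was only 1.08-fold. Muc1 encodes a transmembrane mucin. Its tested probe was under the detection threshold in every RelB-/- mouse and at least 1.55-fold lower there (limma adjusted p = 0.132), while 1 of its 4 probes was detected in a RelB-/- mouse. Spint1, an inhibitor of epithelial surface proteases, read 6.37, 5.99, 5.54 and 6.08 in the RelB+/- mice, compared with 5.32, 4.90 and 4.31 in the RelB-/- mice, a difference of -1.15 (SE 0.27, adjusted p = 0.142). The median of this list lay between -0.54 and -0.33 when any single array was left out.

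Other epithelial transcription and splicing factors centred on 0. Of 32 named factors 12 were tested, 0 were called, 5 had negative and 7 positive differences, and the median was 0.00. Group means of the 12 factors ran from 4.55 (Tfap2b in RelB-/-) to 6.25 (Esrp2 in RelB-/-). Probes detected above background began at 4.83 to 4.98, and log2 differences are compressed near that level. A median of 0.00 therefore does not show that these factors were unchanged. Hnf4a, a factor of liver and gut epithelium, had a difference of 0.53 (SE 0.19, limma adjusted p = 0.317), and Tfap2a, a factor of ectodermal epithelium, one of -0.40 (SE 0.19, adjusted p = 0.406). Regulators of the epithelial-mesenchymal transition included the repressors that bind the E-box marked in the promoters above. Of these 10 genes 6 were tested and 0 called, with a median of -0.07. Zeb2, a repressor of Cdh1 in other epithelia, read 7.13, 7.04, 6.95 and 7.01 in the RelB+/- mice, compared with 7.22, 7.95 and 8.26 in the RelB-/- mice. The groups did not overlap, and the difference of 0.77 (SE 0.23) did not reach the threshold (adjusted p = 0.257). Zeb2 is also expressed by myeloid and other haematopoietic cells, and the cells that gave its signal were not measured. Vim, encoding vimentin of mesenchymal and blood cells, had a difference of -0.51 (SE 0.22, adjusted p = 0.374).

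The junction genes and epithelial factors were then set beside the keratins and the thymic epithelial subsets. Of 44 keratin genes 13 were tested and 1 was called lower. Differences were negative in 13 of 13 keratins, against 46.2% of all genes, with a median of -0.65. Of 26 medullary genes 21 were tested, 5 were called lower (Ccl21a, Fezf2, Aire, Csn2 and Krt14) and the median was -0.80, or -0.83 without Trp63 and Cldn4, which are members of both lists. Cortical epithelium had 16 of 21 genes tested, 0 called and a median of -0.19. Its differences were negative in 10 genes and positive in 6, and ran from -0.97 to 0.30. The lowest was that of Krt18 (SE 0.27, adjusted p = 0.215), which is also in the keratin list. Scx was under the detection threshold in every RelB-/- mouse and at least 1.15-fold lower there (adjusted p = 0.095). At an unadjusted limma p under 0.05, 5 of 16 cortical, 7 of 13 keratin and 12 of 21 medullary genes were lower. In each list 0 were higher, against 6.3% lower and 6.88% higher over all genes. Groups did not overlap and were lower in 3 cortical, 6 keratin and 7 medullary genes, against 6.25% of all genes. The medians were thus -0.12 for the junction genes and factors, -0.19 for cortical epithelium, -0.65 for keratins and -0.80 for medullary epithelium. With single arrays left out they ranged from -0.21 to -0.04, from -0.23 to -0.05, from -0.78 to -0.60 and from -0.88 to -0.69, so the first 2 ranges overlapped, as did the last 2. These are descriptions of lists chosen with earlier results known, the lists share genes, and whether the lists differ from each other was not tested. With all arrays, the median of the junction genes and factors is the value of Cldn4, and the medullary median is that of Trp63. Both genes are in both lists. A median of 5 genes, with Cldn7 and Elf3 close to background, cannot show whether general epithelial expression was kept. Without both heart arrays the medians were -0.14, -0.17, -0.71 and -0.64, and 0 keratins were called. The medullary list then had 4 called genes, of which 3 (Aire, Fezf2 and Ccl21a) were among the 5 called with all arrays. Csn2 (adjusted p = 0.0501) and Krt14 (0.068) were no longer called, and Ccl19 (0.035) was added.

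**Figure D3:**
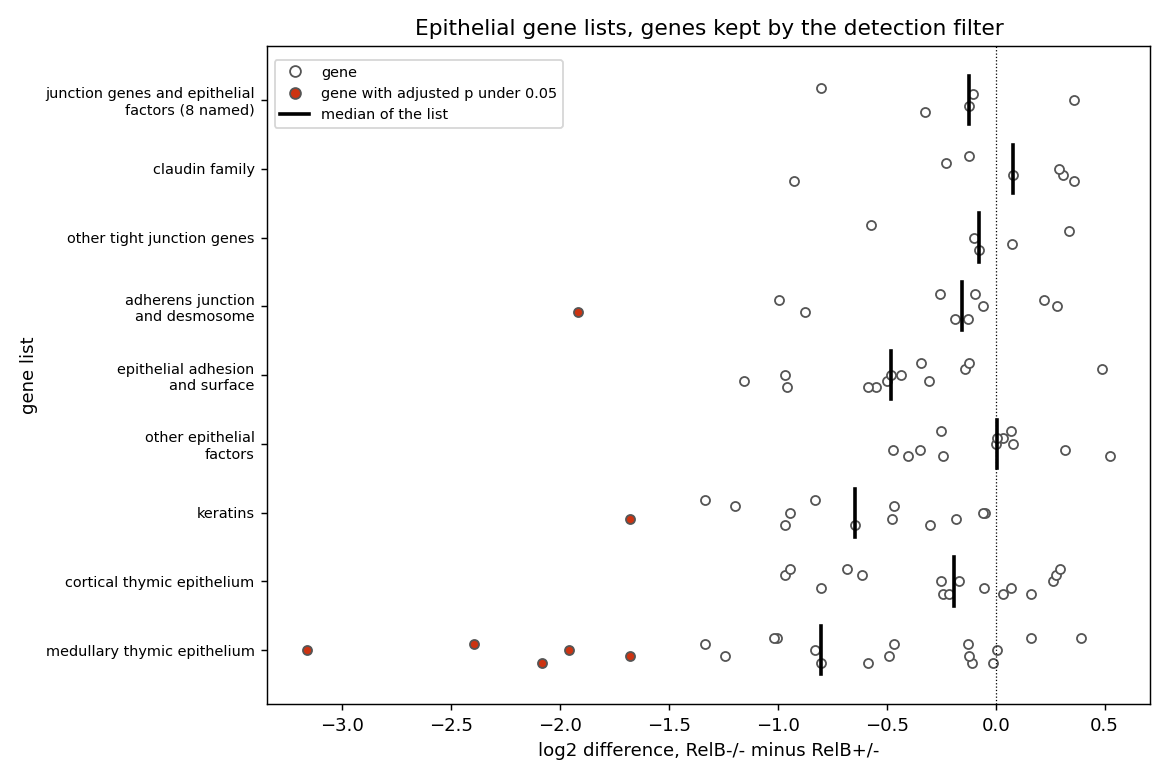
Log2 difference of each gene kept by the detection filter (RelB-/- minus RelB+/-, horizontal axis) in 9 epithelial gene lists, with the list median as a black bar and genes of adjusted p under 0.05 in red. Called genes are found in the medullary list (5), the keratins (1) and the adherens junction list (1, the cadherin-related Cdhr1). The medians run from 0.08 for claudins to -0.80 for medullary epithelium.

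By array, the mean deviation of the 5 genes from their RelB+/- mean was 0.06, -0.06, -0.09 and 0.09 in RelB+/- mice 1 to 4, compared with -0.22, -0.04 and -0.33 in the RelB-/- mice 1 to 3. RelB-/- 2 thus lay within the RelB+/- range. On the same RelB-/- arrays the medullary list deviated by -1.11, -0.75 and -0.83, the keratins by -0.80, -0.52 and -0.79, and the cortical list by -0.26, -0.15 and -0.31. RelB-/- 2 had the smallest deviation in all of these lists.

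**Figure D4:**
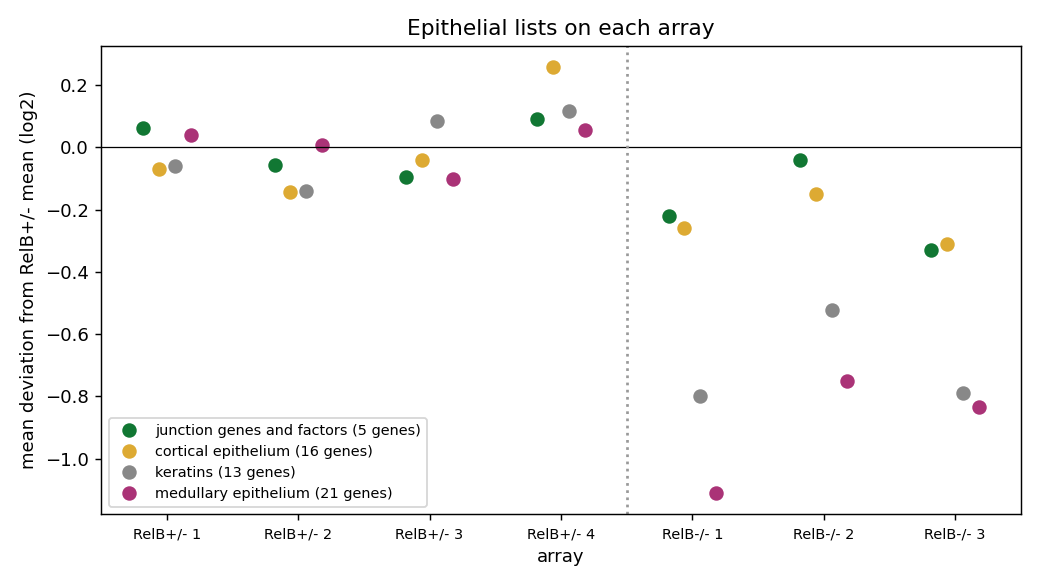
Mean deviation from the RelB+/- mean (log2 units, vertical axis) of 4 epithelial gene lists on each of the 7 arrays. On the RelB-/- arrays the junction genes and factors lie between -0.33 and -0.04, and the medullary list between -1.11 and -0.75.

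Transcripts of other tissues varied between arrays. Heart muscle genes, of which 3 were tested, deviated by 3.44 on RelB+/- 2 and by 5.21 on RelB-/- 3, against -1.20 to -0.93 on the other 5 arrays. Transcripts typical of parathyroid, another epithelium that expresses junction genes, were lower on average in RelB-/- thymus without a call. The cells that gave these transcripts were not measured. Pth, parathyroid hormone, read 6.89, 7.48, 8.21 and 4.97 in the RelB+/- mice, compared with 6.27, 5.32 and 4.28 in the RelB-/- mice, a difference of -1.60 (SE 0.74, limma adjusted p = 0.403). Chga, a secretory granule protein, was above background in 3 of 4 and 0 of 3 mice. The 3 tested parathyroid and thyroid genes deviated by -1.24 to 0.72 on RelB+/- arrays and by -1.48 to -0.62 on RelB-/- arrays. The part of these transcripts in the values of Cdh1 and Trp63 was not tested.

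None of the other marker lists had a called gene except 2. Airway and salivary genes (4 tested, median -0.61), adipocyte genes (10 tested, median -0.86) and thymocyte genes (11 tested, median 0.13) had 0 called. The adipocyte median was -1.88 without RelB-/- 3, where 2 of its genes were called lower, and -0.32 without RelB-/- 2. Without RelB-/- 1, 1 airway or salivary gene was called lower. The NF-kB and TNF family inputs had 1 of 11 called lower, Relb itself. Dendritic cells, some of which carry Epcam or Cdh1, had 2 of 8 genes called lower, Fscn1 and Ccl17, with a median of -0.36. The list was split in direction, with 4 negative and 4 positive differences, from -1.83 to 0.59. Only 0 or 1 of these dendritic genes was called when any single array was left out, and 0 without both heart arrays. Itgae, chosen after its values were seen because it encodes a receptor chain for E-cadherin, ranged from 8.30 to 8.88 in RelB+/- mice and from 7.48 to 8.04 in RelB-/- mice. Those groups, read at the tested probe ILMN_1217629, did not overlap, and the difference of -0.81 (SE 0.20) was not called (limma adjusted p = 0.166). Of the other Itgae probes, ILMN_2699898 and ILMN_2628899 did not overlap between genotypes either. ILMN_2628900 did overlap, with 6.10 in RelB-/- 2 against 5.44 in RelB+/- 4. ILMN_1249573 and ILMN_2656090 were detected on no array. The part of dendritic cells in the Cdh1 value was not tested.

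The genes most like the mean of the 5 tested genes over the 7 arrays were named by Pearson correlation, as a description with no test. They were Hs3st3a1 (r = 0.993), Cx3cl1 (r = 0.985), Cds1 (r = 0.972), Fam83g (r = 0.961), Rgs12 (r = 0.960), Sf3a1 (r = 0.959), Ccr6 (r = 0.949) and Myh11 (r = 0.943). All of them were picked from 9569 genes over the same 7 arrays, which share the genotype difference. The mean itself followed Trp63 (r = 0.963) and Cdh1 (r = 0.776) more than Cldn4 (r = 0.247), Cldn7 (r = -0.187) or Elf3 (r = -0.251), which is in part arithmetic because Trp63 varied most. The 8 genes had differences from -0.92 (Cx3cl1, SE 0.30, limma adjusted p = 0.283) to -0.12 (Sf3a1), and 0 of them were called.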

How the data were processed

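Whole thymus RNA of 7 mice (3 RelB-/-, 4 RelB+/-) was profiled on 7 arrays, and the precision of every value is limited by that number. Probe intensity values were deposited on a linear scale without normalization, each with a detection p-value, per the file headers. The submitters' processing notes name GenomeStudio without a version. The authors also deposited processed log2 values with a median of 7.65 on each array. How these were transformed and centred is unknown here. From raw intensities, background was corrected by normexp on the detection p-values (offset 16, limma 3.58.1, R 4.3.3), followed by quantile normalization and log2. A probe was kept where its detection p was under 0.05 for 3 or more arrays (12465 of 25695). The brightest kept probe stood for a gene. Of all probes 23976 had 1 symbol, 1719 none and 0 several, and 23960 gene identifiers matched RefSeq GRCm38.p6, which changed 0 symbols. Genotypes were compared with limma (lmFit, eBayes) and Benjamini-Hochberg adjustment, tested on simulated data first. In the simulation 58% of 100 genes changed by 1 log2 unit and 89% of 100 changed by 2 were called, with 11 unchanged genes. A real change of 1 log2 unit can therefore go uncalled. A probe detected on no array of a group has only a bound, formed against the higher of its own level and the lowest detected level of each array. Such a bound compares group means, leaves out the spread between mice and applies to the main background correction and normalization only.

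The genes, lists, tests and alternatives were chosen with earlier results of these data known. The rule named the 8 genes, then per list up to 4 called genes or the 2 with the smallest p, and the 8 most correlated genes. The text marks genes outside it. Alternatives covered background, normalization, the authors' values, filter, probe choice, variance model, array weights, chip position, a replicate block and left-out arrays. Same-numbered mice shared only a number: the correlations of their deviations were 0.32, -0.18 and -0.20. Figures used matplotlib 3.10.9.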

Additional observations from a re-analysis of the deposited data

Results flagged for a closer look

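Among 26 sets of RelB+/- values examined (9 probes and 17 gene lists), 3 had 1 array far from the other 3, where chance alone gives about 1 in 20. The claudin genes deviated by 0.37 on RelB+/- 4, and the regulators of the epithelial-mesenchymal transition by 0.27 on the same array. Cldn15, itself among the claudin genes averaged here, read 9.45 on RelB+/- 4 against 6.31 to 7.32 in the other RelB+/- mice. RelB+/- 4 also had the highest level of Upk3b. The heart muscle genes deviated by 3.44 on RelB+/- 2. A probe of Elf3 that the filter left out (ILMN_2850233) read 5.04 on RelB-/- 2, its 1 detected array, and was detected on 0 of 4 RelB+/- arrays.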

How the results depend on the processing

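Calls of the 5 tested genes were the same in every alternative run: 0 lower and 0 higher, with adjusted p from 0.154 (Trp63 without RelB-/- 2) to 0.987 (Elf3). Cdh1, Elf3 and Trp63 kept a negative sign and Cldn7 a positive one in all of them. Cldn4 reversed to 0.088 without RelB-/- 3 and to 0.18 without both heart arrays, and the cause was not tested. With single arrays left out, differences ranged from -1.13 to -0.47 for Trp63, -0.44 to -0.18 for Cdh1, -0.33 to 0.09 for Cldn4, 0.20 to 0.52 for Cldn7 and -0.21 to -0.01 for Elf3. With the authors' processed values and without background correction, the differences were -0.09 and -0.14 for Cdh1 and 0.06 and 0.11 for Cldn7. A stricter filter (detection p under 0.01) left Elf3 untested. Without a filter, Cldn3 (adjusted p = 0.624) and Ehf (adjusted p = 0.905) were not called, with Cldn3 under the detection threshold in every RelB-/- mouse and Ehf in every mouse, and Epcam had no probe in any alternative. Over all genes the main counts were 64 lower and 10 higher. They were 34 to 65 lower and 4 to 8 higher with single arrays left out, 26 and 6 without both heart arrays, and 23 and 2 with the authors' processed values. They were 92 and 15 with chip position as a covariate. The higher count was 6 without background correction and 6 without a filter. With the replicate block the counts were 23 lower and 1 higher, with Trp63 at -0.69 (adjusted p = 0.453), and RelB-/- 1, 2 and 3 did not each correlate best with their own number. Signal near background limits Cldn3, Cldn7, Elf3 and Ehf.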

Other observations

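Mesothelial transcripts, from a list added after the data were seen, varied between arrays of the same genotype. Upk3b (probe ILMN_2941714) read 7.10, 8.95, 9.98 and 11.8 in RelB+/- mice 1 to 4, compared with 6.49, 8.08 and 10.03 in the RelB-/- mice 1 to 3. Wt1, a transcription factor of mesothelium, read 5.12, 5.09, 5.81 and 7.30 against 4.47, 5.61 and 6.44. Krt19, a keratin of simple epithelium, read 4.88, 5.15, 5.98 and 7.50 against 4.80, 5.21 and 6.18. The order of the arrays within each genotype was the same for Krt19 and Upk3b. No test was made of these patterns.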
